A study of Mus musculus with 6 samples.

Results

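The proneural bHLH factors described here are 8 genes, chosen by symbol: Neurog1, Neurog2, Neurog3, Atoh1, Neurod1, Neurod4, Nhlh1 and Nhlh2. They are 8 of the 46517 gene IDs in each deposited table, and each symbol belonged to 1 ID. RNA was sequenced from E14TG2a, a mouse embryonic stem cell line labelled wild type, at 3 stages of differentiation into neurons with 2 libraries a stage. The stages are stem cells (mESC), untreated and grown on gelatin without feeder cells in serum and the cytokine LIF; neuronal progenitors (NPC); and a stage labelled NC. NPC and NC carry the treatment label neuronal differentiation, by a protocol of Bibel and colleagues. NC is taken to be the terminally differentiated glutamatergic pyramidal neurons of the design text. All 6 libraries are labelled as embryonic stem cells from blastocyst, so the stages come from the sample titles. The libraries of a stage are called biological replicates, without saying whether they came from separate differentiations, so p-values measure only the spread between these libraries.

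Basic helix-loop-helix (bHLH) proteins bind the E-box, a short DNA motif, as dimers. Proneural bHLH factors pair with the broadly expressed E proteins and switch on genes that take a dividing progenitor out of the cell cycle and into a neuronal fate. They also induce Notch ligands such as DLL1. Through Notch these ligands raise HES repressors in the neighbouring cells, which hold the proneural genes down there, while ID proteins bind E proteins and keep them from forming active dimers. In the developing nervous system, neurogenins and ATOH1 act early, in progenitors. NEUROD factors follow in cells that are differentiating, and NHLH1 and NHLH2 mark young neurons that have left the cell cycle.

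Values are TPM, an abundance per transcript length that is scaled to the same sum in every library, so levels of different genes can be compared. For Nhlh2, which has 3 annotated transcripts, the rank among the members differed between TPM and coverage, the unscaled signal per base. Depth lay between 1.57 and 2.27 Gb of aligned bases a library. The summed TPM of 6 pluripotency markers was 5834 and 5682 in the mESC libraries and lay between 9.93 and 14.9 in NPC and NC. The summed TPM of 8 neuron markers went from 260 and 323 (mESC) through 684 and 1028 (NPC) to 4017 and 3707 (NC). Of the 4 glutamatergic markers, the vesicular transporter gene Slc17a6 was at 28.9 and 21.6 TPM in NC. Slc17a7, the transporter of cortical pyramidal neurons, was at 3.21 and 1.69 TPM in NC, against 2.86 and 2.07 TPM in mESC and 0.382 and 0.712 TPM in NPC. Gria2 was at 105 and 74.9 TPM in NC, against 10.1 and 18.2 TPM in NPC. Grin1 was at 27.5 and 12.5 TPM in NC, against 2.35 and 2.81 TPM in NPC and 21.0 and 4.94 TPM in mESC. Fibroblast and smooth muscle markers were present in NC as well, with a summed TPM of 912 and 1078, all 7 of them at 1 TPM or more. Genes were tested with limma on log2(TPM + 1), and a change is called at a Benjamini-Hochberg adjusted p under 0.05 over all 20232 genes tested. All 37 mitochondrial genes were listed at 0 in every library, so an exact 0 is reported only as listed at 0.

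The promoters of the members that rose are shown here because proneural factors act on each other's genes through E-boxes. In the 250 bases before the RefSeq start site of each gene (GRCm38.p6, the build of the tables), the motif CANNTG was found in 4 of the 8 members, against 66.2% of 32526 promoters of the same length. The Nhlh2 stretch held 2 such motifs, and those of Nhlh1, Neurod1 and Neurog3 held 1 each. The stretches of Neurog1, Neurog2, Neurod4 and Atoh1 held none. The form CAGATG, bound by ATOH1 and NEUROD proteins, began at position -203 relative to the start site in Nhlh1 and at -127 in Nhlh2, and is found in 14.4% of all promoters. CATATG, a form bound by neurogenins, began at -242 in Neurod1 and is found in 3.42% of all promoters. The RefSeq start site of Neurod1 lies 115 bases inside its gene model, and that of Nhlh2 lies 69 bases inside. Positions are relative to the RefSeq start site. All 250 bases were searched and used for GC content, also where fewer are printed below. A match describes the letters only, and distal enhancers were not analysed here. The sequences read 5′ to 3′ on the gene's strand, capitals mark CANNTG, and bases inside the transcribed part of a gene model of the same strand are left out.
Neurog1, chr13:56252181-56252430, minus strand: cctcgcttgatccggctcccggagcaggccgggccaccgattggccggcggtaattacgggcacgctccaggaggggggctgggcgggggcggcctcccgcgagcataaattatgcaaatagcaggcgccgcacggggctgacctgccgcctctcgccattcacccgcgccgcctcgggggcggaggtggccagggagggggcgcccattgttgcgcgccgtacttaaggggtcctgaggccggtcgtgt
Neurog2, chr3:127632886-127633134, plus strand: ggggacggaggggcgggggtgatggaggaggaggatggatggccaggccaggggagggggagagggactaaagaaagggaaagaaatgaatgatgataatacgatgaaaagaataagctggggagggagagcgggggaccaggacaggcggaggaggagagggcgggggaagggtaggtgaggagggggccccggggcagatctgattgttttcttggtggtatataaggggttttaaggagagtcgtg
Neurod1, chr2:79456786-79456886, minus strand: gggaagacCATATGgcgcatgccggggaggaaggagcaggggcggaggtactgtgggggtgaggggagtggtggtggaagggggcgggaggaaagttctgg
Neurod4, chr10:130280255-130280504, minus strand: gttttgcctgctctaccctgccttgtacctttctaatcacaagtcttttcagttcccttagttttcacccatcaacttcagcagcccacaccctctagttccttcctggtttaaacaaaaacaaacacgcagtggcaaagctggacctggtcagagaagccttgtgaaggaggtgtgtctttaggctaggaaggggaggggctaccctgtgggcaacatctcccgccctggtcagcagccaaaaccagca
Nhlh1, chr1:172057597-172057846, minus strand: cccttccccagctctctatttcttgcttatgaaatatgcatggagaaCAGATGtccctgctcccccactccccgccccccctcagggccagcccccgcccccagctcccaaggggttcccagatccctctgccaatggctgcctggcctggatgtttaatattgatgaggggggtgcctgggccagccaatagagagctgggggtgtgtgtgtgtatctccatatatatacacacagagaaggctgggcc
Nhlh2, chr3:102009895-102010075, plus strand: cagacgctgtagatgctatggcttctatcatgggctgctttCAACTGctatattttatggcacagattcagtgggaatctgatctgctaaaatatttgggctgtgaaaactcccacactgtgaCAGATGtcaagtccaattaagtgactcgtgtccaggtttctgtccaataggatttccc

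Both strands were searched for 3 further motifs. The N-box of HES repressors, CACNAG, lay in 2 of the 8, Neurod4 and Nhlh2, against 36.7% of all promoters. The core of the site of the Notch effector RBPJ, TGGGAA, lay in both Nhlh stretches and in none of the other 6, against 21.6% of all promoters. The exact letters TATAAA, a form of the TATA box, were found in 0 of the 8 stretches, against 12.3% of all promoters. Other forms of the TATA box were not searched, and the Neurog2 stretch printed above holds the letters tatataag. The GC content of the stretches ran from 42.0% in Nhlh2 to 71.2% in Neurog1 and Neurog3, with a median of 52.4% over all promoters.

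In the stem cells 4 of the 8 genes were listed at 0 in both libraries and Neurod1 alone exceeded 1 TPM, and by the progenitor stage 6 of the 8 genes stood above 15 TPM in both libraries. The 8 genes summed to 4.29 and 7.63 TPM among stem cells, to 306 and 377 TPM among progenitors and to 668 and 507 TPM at the NC stage. By TPM, Neurog1 was the most abundant member in NPC and Nhlh2 the most abundant in NC. Neurog3 stayed under 0.33 TPM in every library, and Atoh1 exceeded 1 TPM in 1 library. In bulk RNA, more cells that express a gene and more RNA per cell cannot be told apart.

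**Figure D1:**
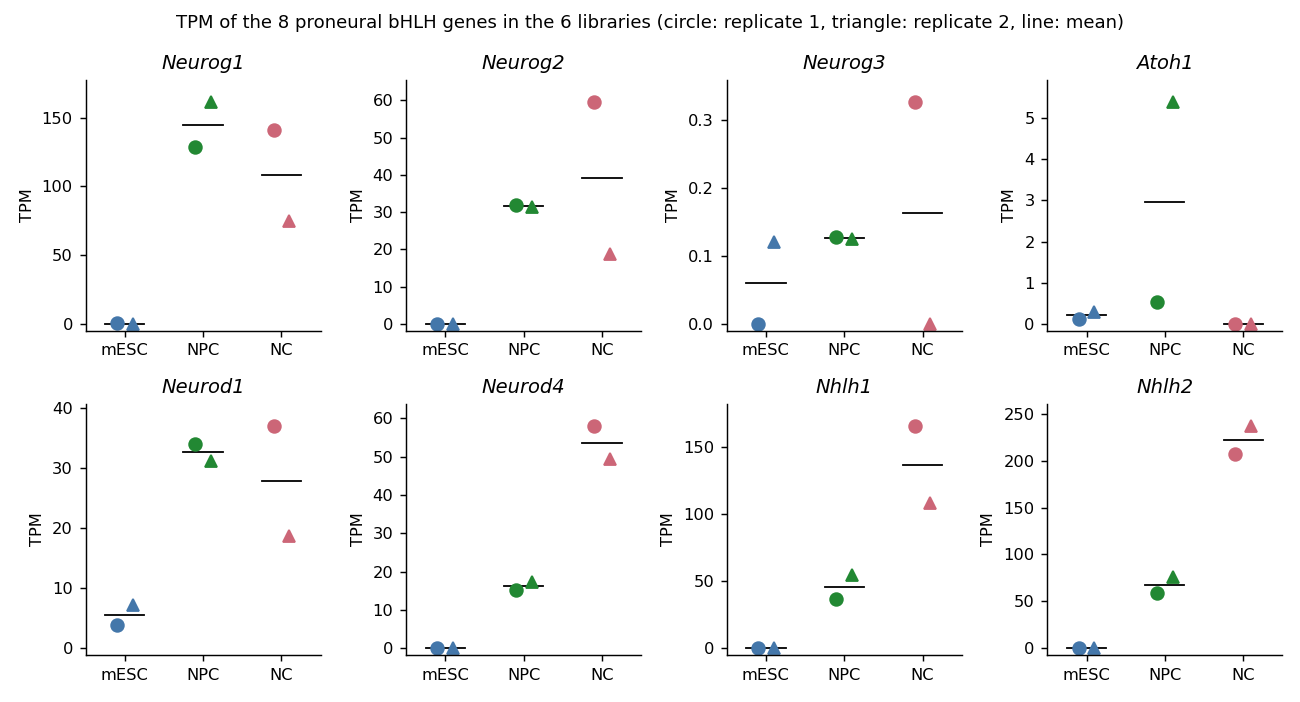
TPM of each of the 8 genes (vertical axis, own scale in each panel) in the 2 libraries of each stage; circles are replicate 1, triangles replicate 2, and lines the mean. Neurog1, Neurog2 and Neurod1 reached their NPC level without a called change to NC, Neurod4, Nhlh1 and Nhlh2 were higher again in NC, and Neurog3 stayed under 0.33 TPM.

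The step from stem cells to progenitors asks which of these genes are switched on as the cells become neural. Neurog1 (ENSMUSG00000048904.4, chromosome 13, 56250505 to 56252163, minus strand, 1 exon), a factor of cranial sensory neurons and of the dorsal neural tube, measured 0.343 and 0.0733 TPM among the stem cells against 128 and 161 TPM among the progenitors. The stages did not overlap, and the mean rose from 0.208 ± 0.191 to 145 ± 23.4 TPM (SD, n = 2 each), a log2 fold change of 6.92 with SE 0.319 (limma, adjusted p = 3.89e-05). Neurog1 ranked above 94.7% and 96.1% of the detected genes in the NPC libraries.

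Neurog2 (ENSMUSG00000027967.8, chromosome 3, 127633135 to 127635631, plus strand, 2 exons), a neurogenin of the cortex, spinal cord and sensory ganglia, had a listed value of 0 in either stem cell library, against 31.8 and 31.4 TPM among the progenitors (limma adjusted p = 0.000516). The NPC libraries were nearly level with each other. Neurog1 exceeded Neurog2 by 4.04 and 5.14 times in the NPC libraries.

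Neurod1 (ENSMUSG00000034701.9, chromosome 2, 79452521 to 79456751, minus strand, 2 exons), which acts downstream of neurogenins to drive differentiation, was the one member already well above 1 TPM in the stem cells, at 3.82 and 7.15 TPM. It stood at 34.0 and 31.2 TPM in NPC, again without overlap, and rose from 5.48 ± 2.35 to 32.6 ± 2.03 TPM (log2 fold change 2.42 with SE 0.376; limma, adjusted p = 0.00322). Neurod1, with Neurod4 at 0, made up 89.0% and 93.7% of the summed TPM of the 8 genes in mESC. Its gene model lies inside that of Cerkl on the same strand, with 3.86 and 1.24 TPM for mESC and 1.52 and 2.21 TPM for NPC, so reads of the shared stretch may be split between them.

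Neurod4 (ENSMUSG00000048015.3, chromosome 10, 130268153 to 130280240, minus strand, 2 exons), known from retinal and midbrain interneurons, went from a listed 0 in either stem cell library to 15.2 and 17.3 TPM among the progenitors (limma, adjusted p = 5.96e-05). Of the members called at this step it had the lowest NPC level.

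Nhlh1 (ENSMUSG00000051251.3, chromosome 1, 172052292 to 172057573, minus strand, 2 exons) was likewise 0 in the stem cell tables and reached 36.9 and 54.5 TPM in NPC (limma adjusted p = 5.47e-05). Nhlh2 (ENSMUSG00000048540.8, chromosome 3, 102010076 to 102015492, plus strand, up to 3 exons) was 0 there too and reached 58.8 and 75.8 TPM (limma adjusted p = 1.43e-05). Both markers of young neurons were thus measured in libraries labelled as progenitors, in which the summed neuron markers were also above mESC. Of the 8 neuron markers, only Stmn2 went the other way, from 162 and 193 TPM in mESC to 67.5 and 77.8 TPM in NPC. The part of neurons in the NPC levels of Nhlh1 and Nhlh2 was not tested.

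Of the 8 members, 6 passed the low-value filter and all 6 of these were higher in NPC, where 26.0% of all tested genes were called higher, 14.0% lower and 40.0% in either direction. Of the 6, Neurod1 alone reached 1 TPM in mESC and the others passed the filter only through the later stages, so this count describes the group and is no support for it. The median log2 fold change of the 6 was 5.27, against 0.18 over all genes tested. The fold changes of the members under 1 TPM in mESC depend on the pseudocount of 1: that of Neurog1 was 9.02 in place of 6.92 with a pseudocount of 0.1. After median-of-ratios scaling the median of all genes was -0.01, and genes called higher made up 52.7% of the calls in place of 65.0% (51.2% after quantile normalization).

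Within NPC the order of the levels by TPM was Neurog1, Nhlh2, Nhlh1, Neurod1, Neurog2, Neurod4, Atoh1 and Neurog3. Each neighbour in this order was separated in both libraries except Neurod1 and Neurog2, which overlapped near 31 TPM. By coverage, Nhlh2 and Nhlh1 were at 37.6 and 37.5 in NPC replicate 1, and at 42.4 and 48.7 in replicate 2. The order in mESC was led by Neurod1, and no other member reached 0.35 TPM there.

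Neurog3 and Atoh1 did not pass the filter of at least 1 TPM in at least 2 libraries. Neurog3 (ENSMUSG00000044312.3, chromosome 10, 62133090 to 62134763, plus strand), the factor of endocrine cells of the pancreas, measured 0 and 0.121 TPM (mESC), 0.127 and 0.124 TPM (NPC) and 0.326 and 0 TPM (NC). With no filter on low values limma called it in none of the 3 comparisons, with adjusted p from 0.598 to 0.967. It lies inside the gene model of 2010107G23Rik on the opposite strand, which ran from 3.49 to 20.9 TPM. Without a stated strand setting, reads of the overlapping stretch cannot be told apart.

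Genes of the pancreatic endocrine programme that Neurog3 starts were mostly low. Of 13 such genes 5 passed the filter, of which 3 rose and 0 fell from mESC to NPC and 2 rose and 1 fell from NPC to NC (1 call at the second step when either NPC replicate was left out). Over all tested genes 40.0% and 25.3% were called at these steps in either direction. The hormone genes Ins1, Ins2 and Gcg and the endocrine factor Pax4 were listed at 0 in all 6 libraries. Pdx1, the factor that founds the pancreas, did not exceed 0.0978 TPM. Sst, which encodes somatostatin and is also a peptide of neurons, rose at both steps. Its value was 0 for each stem cell library, then 86.7 and 132 TPM in NPC, then 250 and 626 TPM in NC. Mnx1, also a factor of motor neurons, rose by 2.62 and then fell by 2.68 on the log2 scale, and Chga, a protein of secretory granules in neurons as well, rose by 2.68 at the second step.

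Atoh1 (ENSMUSG00000073043.5, chromosome 6, 64729125 to 64731245, plus strand, 1 exon), the factor of cerebellar granule neurons, hair cells and the most dorsal spinal interneurons, was at 0.128 and 0.286 TPM in mESC. In NPC it was at 0.525 TPM in replicate 1 and 5.39 TPM in replicate 2, and in NC at 0.00432 and 0.000935 TPM. These values rest on 203 and 685 aligned bases for mESC, 1131 and 10213 for NPC and 6.67 and 1.67 for NC. Atoh1 was thus above 1 TPM in a single library, the second of NPC. With no filter limma called it in none of the 3 comparisons (adjusted p from 0.241 to 0.842).

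Genes of the dorsal hindbrain and of the Atoh1 lineage, picked here after their values were seen, were also higher in NPC replicate 2 than in replicate 1. Olig3, a bHLH factor of dorsal hindbrain and spinal progenitors, was at 7.21 and 32.9 TPM in the NPC libraries. Ptf1a, the bHLH factor of cerebellar inhibitory neurons, was at 1.96 and 8.43 TPM. Of the Atoh1 lineage genes, Lhx2 was at 3.79 and 7.51 TPM, Barhl1 at 0.886 and 2.89 TPM, Barhl2 at 0 and 2.22 TPM, and Lhx9 at 0.114 and 0.615 TPM, while Gfi1 was the other way round, at 1.73 and 1.01 TPM. The direction was not particular to these genes. The neural crest marker Tfap2b was at 9.93 and 26.8 TPM in NPC replicates 1 and 2, and the neuron marker Map2 at 66.2 and 148 TPM. Endoderm markers went the other way, with a summed TPM of 184 and 124. The 6 members called at this step differed by at most 1.48 times between the same libraries, and the part of the library difference in the Atoh1 value was not tested.

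From NPC to NC, Neurod4, Nhlh1 and Nhlh2 rose further, while Neurog1, Neurog2 and Neurod1 were not called. Nhlh2 was at 207 and 237 TPM in NC, above both NPC libraries, and its mean rose from 67.3 to 222 ± 21.3 TPM (SD, n = 2), a log2 fold change of 1.71 with SE 0.191 (limma, adjusted p = 0.00358). Nhlh1 was at 166 and 108 TPM in NC and rose from 45.7 ± 12.4 to 137 ± 40.7 TPM (log2 fold change 1.56 with SE 0.282; limma, adjusted p = 0.0116). Neurod4 was at 57.9 and 49.4 TPM and rose from 16.3 ± 1.44 to 53.7 ± 6.06 TPM (log2 fold change 1.66 with SE 0.217; limma, adjusted p = 0.00503). For all 3 genes the lowest NC library lay above the highest NPC library.

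Among all tested genes 15.2% were called higher at this step, 10.1% lower and 25.3% in either direction. Which direction held more calls depended on the scaling: 3079 genes were called higher and 2044 lower, against 2357 and 2656 with FPKM and 2540 and 2790 with quantile normalization. The median log2 fold change of the 6 tested members was 0.82, against 0.11 over all genes tested. Without NPC replicate 1 only Nhlh2 was called, with adjusted p = 0.0600 for Neurod4 and 0.0976 for Nhlh1, while the count of calls over all genes fell from 5123 to 805. Nhlh1 was also not called with no filter on low values (limma adjusted p = 0.0501).

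Neurog1 was at 141 and 75.0 TPM in NC, the first inside and the second below the NPC range (log2 fold change -0.48, 95% interval -1.24 to 0.28, limma adjusted p = 0.312). Neurog2 was at 59.6 and 18.8 TPM, above and below both NPC libraries (log2 fold change 0.09, 95% interval -1.08 to 1.26, limma adjusted p = 0.918). Neurod1 was at 36.9 and 18.7 TPM (log2 fold change -0.30, 95% interval -1.20 to 0.61, limma adjusted p = 0.605). The interval of Neurog2 takes in changes of more than 1 on the log2 scale in either direction. Those of Neurog1 and Neurod1 take in falls of more than 1. These data therefore do not show that the level of any of these genes stayed the same. With FPKM in place of TPM, with quantile normalization or without NC replicate 1 the sign for Neurog2 was negative, and without NC replicate 2 the sign for Neurod1 was positive.

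**Figure D2:**
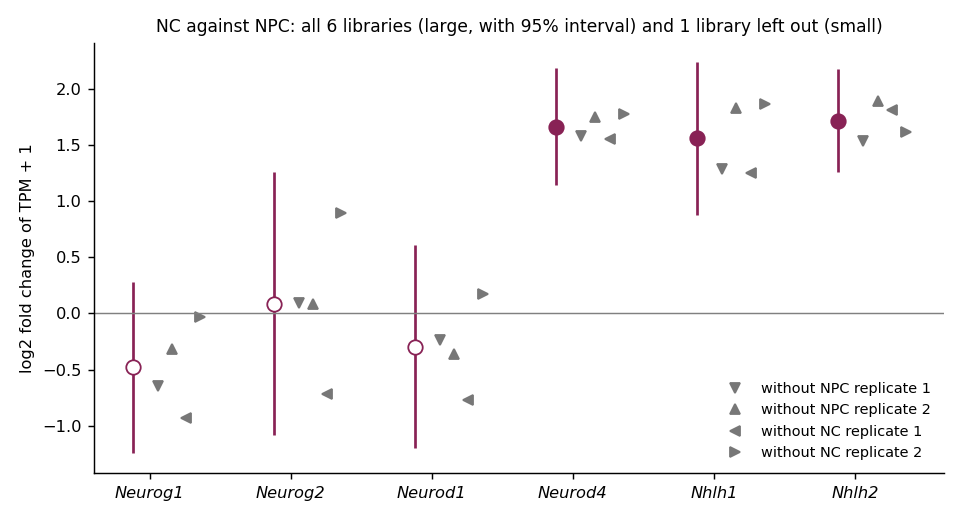
Log2 fold change of TPM + 1 from NPC to NC for the 6 tested genes (vertical axis); large symbols are the fit to all 6 libraries with its 95% interval, filled where called, and small grey symbols leave out the library named in the key. The values of Neurod4, Nhlh1 and Nhlh2 lay above 1 in each of these fits, and those of Neurog2 and Neurod1 fell on both sides of 0.

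The make-up of the group changed between the stages. Neurog1 and Neurog2 together held 52.4% and 51.1% of the summed TPM of the 8 genes in the NPC libraries, and 30.0% and 18.5% in the NC libraries. Nhlh1 and Nhlh2 together held 31.3% and 34.6% in NPC, against 55.7% and 68.1% in NC. The TPM ratio of Nhlh2 to Neurog1, which does not depend on the scaling of a library, was 0.458 and 0.470 in NPC, against 1.46 and 3.16 in NC. The libraries did not overlap in any of these measures, but with 2 against 2 a two-sided exact permutation test cannot go below p = 0.333, and none is given. Neurod1 and Neurod4 together held between 12.8% and 16.1% in NPC and NC. By coverage in place of TPM, Nhlh2 lay below Neurog1 in NC replicate 1, at 96.6 against 103.

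**Figure D3:**
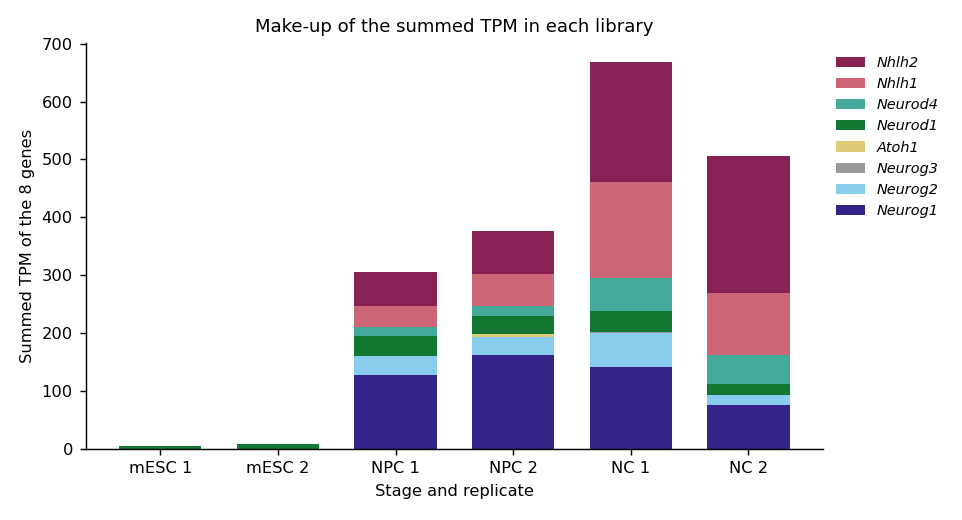
Summed TPM of the 8 genes (vertical axis) in each of the 6 libraries, with the bar divided by gene. The bars rise from 4.29 and 7.63 TPM (mESC) to 306 and 377 TPM (NPC) and to 668 and 507 TPM (NC), where Nhlh1 and Nhlh2 took the larger part.

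In NC the order of the levels by TPM was Nhlh2, Nhlh1, Neurog1, Neurod4, Neurog2, Neurod1, Neurog3 and Atoh1. Nhlh2 lay above Nhlh1 in both libraries by TPM. By coverage, Nhlh2, Nhlh1 and Neurog1 were at 96.6, 121 and 103 in NC replicate 1. In replicate 2 they were at 125, 91.0 and 63.0, so the first place of Nhlh2 depends on the measure. Nhlh1 and Neurog1 overlapped, and Neurog2 overlapped both Neurod4 and Neurod1, so these pairs are not ordered by 2 libraries. Neurod4 lay above Neurod1 in both.

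The NC libraries differed from each other by unlike amounts across the members. Neurog2 was 3.17 times as high in replicate 1 as in replicate 2, Neurod1 1.97 times and Neurog1 1.88 times. Nhlh1 was 1.53 times and Neurod4 1.17 times as high in replicate 1, while Nhlh2 was lower there than in replicate 2, by 1.15 times. The log2 difference of Neurog2 between the NC libraries was larger than that of 97.5% of tested genes. Several progenitor markers differed the same way: Hes5, a Notch target of neural progenitors, was at 131 and 13.7 TPM in NC replicates 1 and 2, Pax6 at 78.5 and 33.5 TPM, and Fabp7, a radial glia gene, at 792 and 164 TPM. Nes was the other way round, at 84.2 and 119.8 TPM. The 7 progenitor markers summed to 2703 and 1894 TPM and the 6 astrocyte markers to 157 and 48.8 TPM, while the 8 neuron markers summed to 4017 and 3707 TPM. The part of these markers in the values of Neurog1, Neurog2 and Neurod1 was not tested.

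Against the stem cells, NC had higher levels of all 6 tested members (limma adjusted p from 6.94e-06 for Nhlh2 to 0.00329 for Neurod1), where 37.8% of all tested genes were called higher, 22.1% lower and 59.9% in either direction. As in the comparison with NPC, only Neurod1 reached 1 TPM in mESC, so this count describes the group and is no support for it. Genes called higher made up 63.2% of all calls, 52.3% after median-of-ratios scaling and 47.2% after quantile normalization. The mESC libraries are the same as in the comparison with NPC. Neurog1 stood 6.44 higher on the log2 scale and Neurod1 2.12 higher, and the 4 members listed at 0 in mESC ranged from 18.8 TPM, for Neurog2 in NC replicate 2, to 237 TPM, for Nhlh2.

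The lists of related genes are described by counts, to be read against the shares of all tested genes given above: 26.0% higher and 14.0% lower from mESC to NPC, 15.2% and 10.1% from NPC to NC, and 37.8% and 22.1% between mESC and NC. List genes low in one stage also passed the filter through another, and a share near these values is no result about a list. The lists were chosen with earlier results of these data known, so counts and medians above the background describe a list and are no support for it.

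The other bHLH factors of the nervous system followed several courses. Of 14 such genes 9 were tested, of which 7 rose and 0 fell from mESC to NPC (limma, 8 with an unadjusted p under 0.05), and 1 rose and 5 fell from NPC to NC. Bhlhe22, a factor of projection neurons and dorsal interneurons, rose at both steps (log2 fold change 3.27 and 2.06). Bhlhe23 rose and then fell (3.72 and -2.66), as did Atoh8 (3.41 and -1.48). Olig2, the factor of motor neuron and oligodendrocyte progenitors, was listed at 0 in mESC, was at 5.97 and 4.10 TPM in NPC, and fell by 2.02 on the log2 scale to NC. Ptf1a fell by 2.23. Leaving out NPC replicate 1 gave 1 call at the second step, and leaving out NPC replicate 2 gave 2, where 6 of the genes were tested. From mESC to NPC 4 were called without NPC replicate 2.

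Neurod2 and Neurod6, which follow the neurogenins in cortical pyramidal neurons, did not pass the filter. Neurod2 was at 20.7 TPM in NC replicate 1 and 0.219 TPM in replicate 2, and Neurod6 at 14.7 TPM and 0. Neither exceeded 0.0244 TPM in mESC or NPC. Both were therefore above 1 TPM in 1 of the 2 NC libraries, the one with the higher Neurog2.

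The dimer partners rose with the proneural genes from mESC to NPC. Of the E proteins, Tcf12 rose from 16.4 ± 2.82 TPM in mESC to 121 ± 5.84 TPM in NPC (SD, n = 2 each; log2 fold change 2.81), Tcf4 by 1.25 and Tcf3 by 0.83 on the log2 scale. In NC, Tcf4 (log2 fold change over NPC 0.92) and Tcf12 (0.82) were higher again, while Tcf3 fell by 0.51. None of these 3 NPC to NC calls was left when NPC replicate 1, NPC replicate 2 or NC replicate 1 was left out.

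Most of the tested inhibitors of bHLH activity rose into NPC, and 3 were called lower from NPC to NC. Of 12 ID, HES and HEY genes 10 were tested, of which 7 rose and 0 fell from mESC to NPC (8 with an unadjusted p under 0.05), where 26.0% of all tested genes rose and 14.0% fell. Hes5 rose most, from 0.856 ± 0.119 to 323 ± 51.0 TPM (log2 fold change 7.44), followed by the ID genes Id3 (4.36) and Id2 (3.04) and the Notch target Hey1 (2.46). From NPC to NC 0 rose and 3 fell: Id3 by 3.10, Id1 by 2.06 and Hes1 by 1.66 on the log2 scale, where 10.1% of all tested genes fell. Id1 had not been called from mESC to NPC (log2 fold change 0.59). An unadjusted p under 0.05 was found for 6 genes in either direction. Among them Id4 (log2 fold change 2.16) and Heyl (1.31) were higher in NC but not called. Hes5 did not pass at this step (log2 fold change -2.88), with the NC libraries at 131 and 13.7 TPM. The NPC to NC count in either direction was 5 without NC replicate 1, 6 without NC replicate 2 and 5 with the replicate number as a block, and the mESC to NPC count was 4 without either NPC replicate.

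Among the 13 genes of the Notch pathway, which proneural factors feed through its ligands, 8 rose and 1 fell from mESC to NPC, where 40.0% of all tested genes were called in either direction. The ligand Dll1 rose from 4.70 ± 2.09 to 99.8 ± 18.4 TPM (log2 fold change 4.18), and Dll3 (3.74), Dll4 (2.93) and the glycosyltransferase Lfng (3.35) rose as well. Rbpj, the nuclear effector of Notch, fell by 1.08 on the log2 scale. After median-of-ratios scaling or quantile normalization 7 rose and 2 fell. At the second step Dll3 (1.52), the ligand Jag1 (1.30) and Rfng (0.79) rose, and Lfng fell by 1.95. These are 4 of the 13 genes, near the 25.3% called over all tested genes. Leaving out NPC replicate 1 gave 1 call and leaving out NPC replicate 2 gave 2. Dll1 was at 103 and 124 TPM in NC, with no call against NPC.

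Genes described as targets of proneural factors rose at both steps. Of 14 tested, 12 rose and 2 fell from mESC to NPC, and 13 rose and 0 fell from NPC to NC (14 with an unadjusted p under 0.05). Their median log2 fold change was 2.36 and 1.66 at these steps, against 0.18 and 0.11 over all tested genes. From mESC to NPC the zinc finger factor Myt1 went from 0.0242 and 0 TPM to 31.3 and 58.0 TPM (log2 fold change 5.43), Ebf3 rose by 4.80 and Gadd45g by 3.78, and St18 was listed at 0 in mESC and at 16.0 and 21.2 TPM in NPC. From NPC to NC the largest rises were those of Cbfa2t3 (log2 fold change 3.21), the CDK5 activator Cdk5r1 (3.01), Ebf2 (2.68) and Rnd3 (2.36), a small GTPase of neuronal migration. Eomes, a target of NEUROG2 in cortical progenitors, fell by 1.91 from mESC to NPC and did not exceed 1.65 TPM in NC. The NPC to NC count was 6 without NPC replicate 1 and 8 with no filter on low values.

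**Figure D4:**
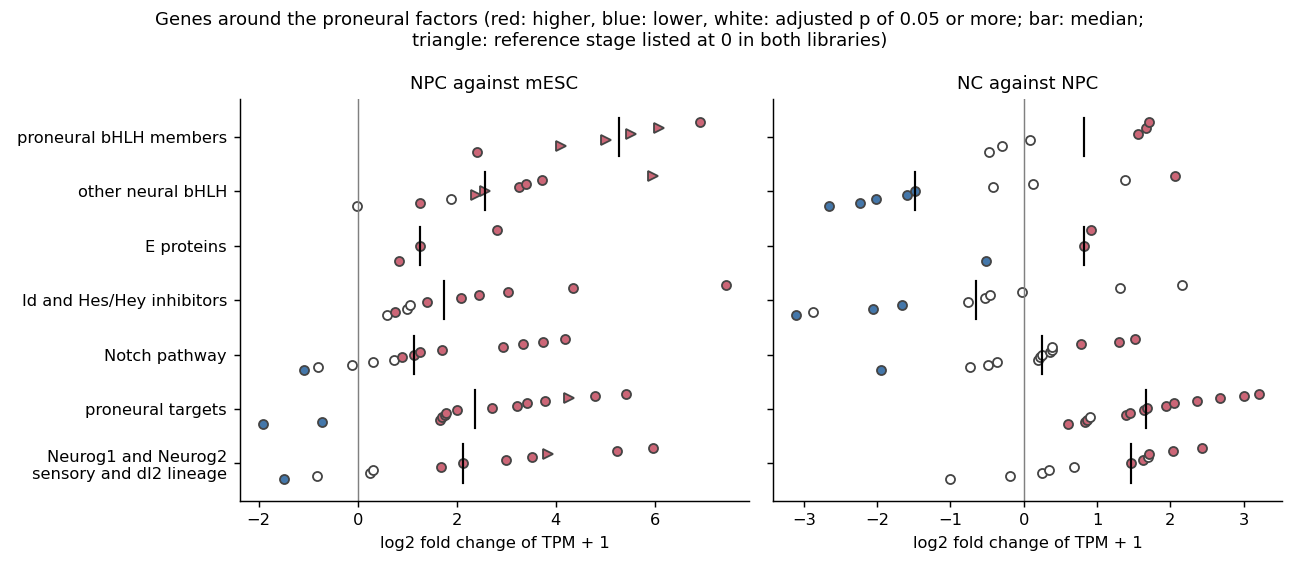
Log2 fold change of TPM + 1 (horizontal axis) of each tested gene in 7 lists for mESC to NPC (left) and NPC to NC (right); red is called higher, blue called lower, white not called, black bars are medians, and triangles mark genes listed at 0 in both libraries of the earlier stage, for which the position depends on the pseudocount. From NPC to NC 13 of 14 target genes were called higher, while 5 of 9 tested genes of the other neural bHLH list and 3 of 10 inhibitors were called lower.

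Markers of the neurons that arise from Neurog1 and Neurog2 progenitors were tested next. Of 11 genes of sensory neurons and of the dI2 class of spinal interneurons 7 rose and 1 fell from mESC to NPC, and 5 rose and 0 fell from NPC to NC (6 with an unadjusted p under 0.05). Lhx1 and Lhx5, which mark dI2 and other interneurons, rose by 5.97 and 5.24 on the log2 scale into NPC, the neurotrophin receptor gene Ntrk3 by 3.52, and Prdm12 was listed at 0 in mESC and at 13.2 and 13.8 TPM in NPC. In NC, Lhx1 was at 216 and 263 TPM and Lhx5 at 151 and 145 TPM. Pou4f1, a factor of sensory and dorsal interneurons, rose only at the second step by the test (log2 fold change 2.43), and Ntrk3 (2.03), Foxd3 (1.70) and Lhx5 (1.63) rose there too. Foxd3 was also the gene that fell from mESC to NPC, from 19.4 and 15.7 TPM to 5.96 and 5.27 TPM. In NC it was at 35.8 and 11.5 TPM, the second value below both mESC libraries. The NPC to NC count was 3 with a pseudocount of 0.1, 2 with no filter and 1 without NPC replicate 1.

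Between mESC and NC, with the same stem cell libraries, 12 of the 14 target genes rose and 1 fell, 8 of the 11 sensory and dI2 genes rose and 0 fell, and 9 of the 13 Notch genes rose and 2 fell. Of the tested inhibitors 7 rose and 2 fell, of the other neural bHLH genes 4 rose and 0 fell, and of the E proteins 2 rose and 0 fell. With 37.8% of all tested genes called higher and 59.9% in either direction, the 4 of 9 tested bHLH genes lie near the first share and under the second.

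The Atoh1 lineage list gave few calls. Of 6 genes 4 were tested, of which Lhx2 (log2 fold change 2.16) and Gfi1 (1.16) rose from mESC to NPC. By limma 0 were called from NPC to NC (1 with an unadjusted p under 0.05) and 0 between mESC and NC (0 with an unadjusted p under 0.05). The count from mESC to NPC was 0 without either mESC replicate or without NPC replicate 2, and 1 without NPC replicate 1, with quantile normalization or with no filter. Between mESC and NC it was 1 without NC replicate 1, and between NPC and NC 1 without NC replicate 2.

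The genes most like each tested member in their course over the 6 libraries were taken by Pearson's r of log2(TPM + 1), which is a description over 6 points that share 3 stages. For Neurog1 they were Yaf2 (r = 0.9996), the neural POU factor gene Pou3f2 (0.9995) and the noncoding RNA Pantr2 (0.9992). Pou3f2 shared the split between the NC libraries, at 65.7 and 38.4 TPM. For Neurog2 they were Slc25a4 (0.9994), Lgi2 (0.9983) and Satb1 (0.9981). For Neurod1 they were Fbxo36 (0.9987), Sms (0.9964) and Mettl9 (0.9956), and for Neurod4 Rnf165 (1.00), Pex6 (0.9999) and Trim32 (0.9998). Nhlh1 was followed by Trove2 (0.9998), Rassf4 (0.9997) and Scg5 (0.9992), and Nhlh2 by Fam171b (0.9998), the neurofilament gene Nefl (0.9998) and Mllt1 (0.9997). Several of these moved far less than the member: Slc25a4 ran from 296 to 439 TPM.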

How the data were processed

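RNA of 6 libraries was sequenced on an Ion Proton after poly(A) selection and rRNA depletion, per the labels' protocols. The submitters' processing notes name StringTie 2.1.5, STAR 2.7.9a, cutadapt 3.4, DESeq2 and R 4.0.3, and the build mm10. The sources used here give neither annotation release nor strand setting. Per the file headers, the tables hold StringTie coverage (signal per base, unscaled), FPKM and TPM, and the deposited TPM sum to the same total in each library. Neither counts nor a detection limit can be had from them. Depth was read from the ratio of coverage to FPKM, constant within 0.1% for 38.3% to 39.7% of genes at 1 FPKM or more. Between 2 and 9 repeated lines a table were summed by gene ID. Positions are those of the tables, and exons come from GENCODE vM21 by gene ID without version, in which 6 of the 8 members have the same start and end. Promoter sequences are RefSeq's (GRCm38.p6), found for all 8.

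Genes that reached 1 TPM in 2 or more libraries were tested with limma 3.58.1 in R 4.3.3 (lmFit and eBayes with trend on log2(TPM + 1), 1 coefficient per stage, all 6 libraries, no replicate block, two-sided), so fold changes of low genes are understated. The procedure was tested on simulated data. Alternatives were a pseudocount of 0.1, no filter, FPKM, median-of-ratios scaling, quantile normalization, only the libraries of the 2 stages compared, a replicate block, and leaving out each library in turn; a lone library is then assumed to vary like the other stages. The members and the 8 further lists, with 86 gene entries, were chosen with earlier results of these data known. The genes named are the members, up to 4 called genes of each list with the largest change in a comparison, others where a sentence needs their values, and the 3 genes with the highest Pearson r to each tested member.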

Additional observations from a re-analysis of the deposited data

How the results depend on the processing

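The 6 calls among the members from mESC to NPC and the 6 between mESC and NC held under every alternative run, and leaving out 1 library gave 6 to 6. From NPC to NC the 3 calls held except when 1 library was left out (1 to 3, lowest without NPC replicate 1) and except Nhlh1 with no filter (adjusted p = 0.0501). Over all genes, calls from NPC to NC fell from 5123 to 3166 with no filter and ran from 805 (without NPC replicate 1) to 5264 with 1 library left out. From mESC to NPC they ran from 4138 (without NPC replicate 2) to 8680 around 8100, and between mESC and NC from 9290 to 10873, all below the 12118 of the fit to all 6 libraries. Signs that turned were those of values not called, from NPC to NC: Neurog2 at -0.0639 with FPKM, -0.0533 with quantile normalization and -0.72 to 0.89 with 1 library left out (negative without NC replicate 1), and Neurod1 at -0.77 to 0.18 with 1 library left out (positive without NC replicate 2). The cause was not tested. With the replicate number as a block, the members called were 6, 3 and 6 in the 3 comparisons, the same counts as without it. Same-numbered libraries did not deviate together (r of their deviations over 20232 genes 0.05 for mESC and NPC, -0.07 for NPC and NC, -0.08 for mESC and NC), so the numbers are not taken to pair samples. Precision is limited by 2 libraries a stage, and with no counts no depth-based limit is given.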
